A study of Mus musculus with 9 samples.

Results

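Notch signalling genes were followed across 3 mouse epithelial cell lines by all array probe sets whose single gene symbol is Notch1, Notch2, Notch3, Jag1, Jag2, Dll1, Hes1, Hey1, Nrarp or Lfng. This gave 18 of the 45037 non-control probe sets, for 10 of the 18193 genes that had a probe set of their own, and all 10 genes are reported. The tumour line is MDA-F471; it derives from an adenocarcinoma of the lung that a female Gprc5a-knockout mouse carried 16 months after receiving NNK, a carcinogen of tobacco smoke. The knockout and wild-type lines are tracheal, from mice aged 3 weeks without and with intact Gprc5a, though their sample titles call them normal lung epithelial cells. Both tracheal lines are labelled normal and non-tumorigenic, and all 3 lines have the strain background C57/BL6 x sv129. Each line was measured on 3 Affymetrix MG-430 2.0 arrays, and the deposited values are log2 signals, on which a difference of 1 is a 2-fold difference. Each genotype or tumour state is 1 line, so its own history, handling, organ, NNK exposure and age cannot be told apart from the label. The labels do not call the replicates separate cultures, and p-values therefore cover array-to-array spread alone, which may be technical. A probe set was called when its limma p, adjusted by Benjamini-Hochberg over 45037 probe sets, was under 0.05 and its difference at least 2-fold. Each gene is counted by its leading probe set, the one with the highest mean over the 9 arrays.

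Notch receptors are cut when they bind a ligand of the Jagged or Delta-like family on a neighbouring cell, and the freed intracellular part joins the DNA-binding protein Rbpj to switch on target genes. In the airway, Notch signalling takes part in the differentiation of basal cells and favours the secretory over the ciliated fate. Hes1, Hey1 and Nrarp are widely used targets, and Lfng is a glycosyltransferase that changes how a receptor answers its ligands.

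The targeted gene Gprc5a had a mean log2 signal of 7.02 in the tumour, 7.16 in the knockout and 8.57 in the wild-type line, and was called lower in both lines that lack it; the sources used here do not place its probe set inside or outside the deletion. The epithelial adhesion marker Epcam was bright in all 3 lines, with means of 12.03, 11.73 and 11.74 in the same order. Of the other 4 epithelial markers, Krt8, Krt18 and Cldn7 were called higher in the tumour line, by 1.33, 3.50 and 4.58 log2 relative to the knockout line. Cdh1 differed by -0.71 there and was not called. For knockout versus wild-type, Krt18 and Cldn7 were also called higher, by 2.55 and 2.12. Krt8, Epcam and Cdh1 gave 0.98, -0.01 and -0.26 between these tracheal lines and were not called. The keratin Krt5 of airway basal cells had means of 8.43 in the tumour, 14.38 in the knockout and 14.46 in the wild-type line. Of 7 airway basal markers, 6 were called lower in the tumour line relative to each tracheal line, where 6.38% of all genes were called lower than in the knockout and 8.46% lower than in the wild-type line. Their mean log2 signal per array was 5.81 to 5.90 in the tumour, 12.14 to 12.24 in the knockout and 12.38 to 12.50 in the wild-type line. For knockout versus wild-type only Trp63 of the 7 was called (14.3%, beside 4.88% of all genes), at -1.36. Its 3 other probe sets gave -0.67 to -0.25 there, none called. The leading probe sets of Krt17, Trp63 and Col17a1 lay under the background floor on every tumour array. Other probe sets were also called lower for tumour versus knockout but by less, at -3.14 for Krt17 and -1.71 to -1.13 for Trp63. This floor, 5.15 log2, is the 95th percentile of 27 bacterial control probe sets. None of 5 alveolar type II and lung lineage markers was called in any comparison; in the tumour line Sftpa1, Nkx2-1 and Sftpc read 5.33, 5.35 and 5.72, close to the floor, and Sftpb and Abca3 read 7.85 and 9.52, against 7.99 and 9.62 in the knockout line. Of 5 airway secretory markers only Cyp2f2, a cytochrome P450 of club cells, was called, with means of 5.77 in the tumour, 11.32 in the knockout and 11.07 in the wild-type line, while the club cell secretoglobin Scgb1a1 read 4.93, 4.93 and 4.85. Of 4 ciliated cell markers 0 were called in any comparison. The difference between 3' and 5' beta-actin controls, a sign of RNA quality, was 0.37 to 0.74 on the tumour, 0.90 to 0.95 on the knockout and 0.75 to 1.78 on the wild-type arrays. The part of these markers and controls in the Notch gene differences was not tested. In bulk RNA, fewer cells of a type and less RNA per cell cannot be told apart.

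In the tumour line the ligands Dll1 and Jag2 and the receptors Notch1 and Notch3 were lower than in the knockout line, while the ligand Jag1 read 1.9-fold higher and was not called. In the knockout line Dll1 and Notch1 were higher than in the wild-type line, and none of the 10 genes was called lower there. Jag2 and Lfng read lower in that comparison with adjusted p-values of 0.00151 and 9.79e-04 but less than 2-fold. Against the wild-type line, the tumour line was lower in Dll1, Jag2, Notch3 and Lfng. None of the 3 targets passed the threshold in any comparison.

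**Figure D1:**
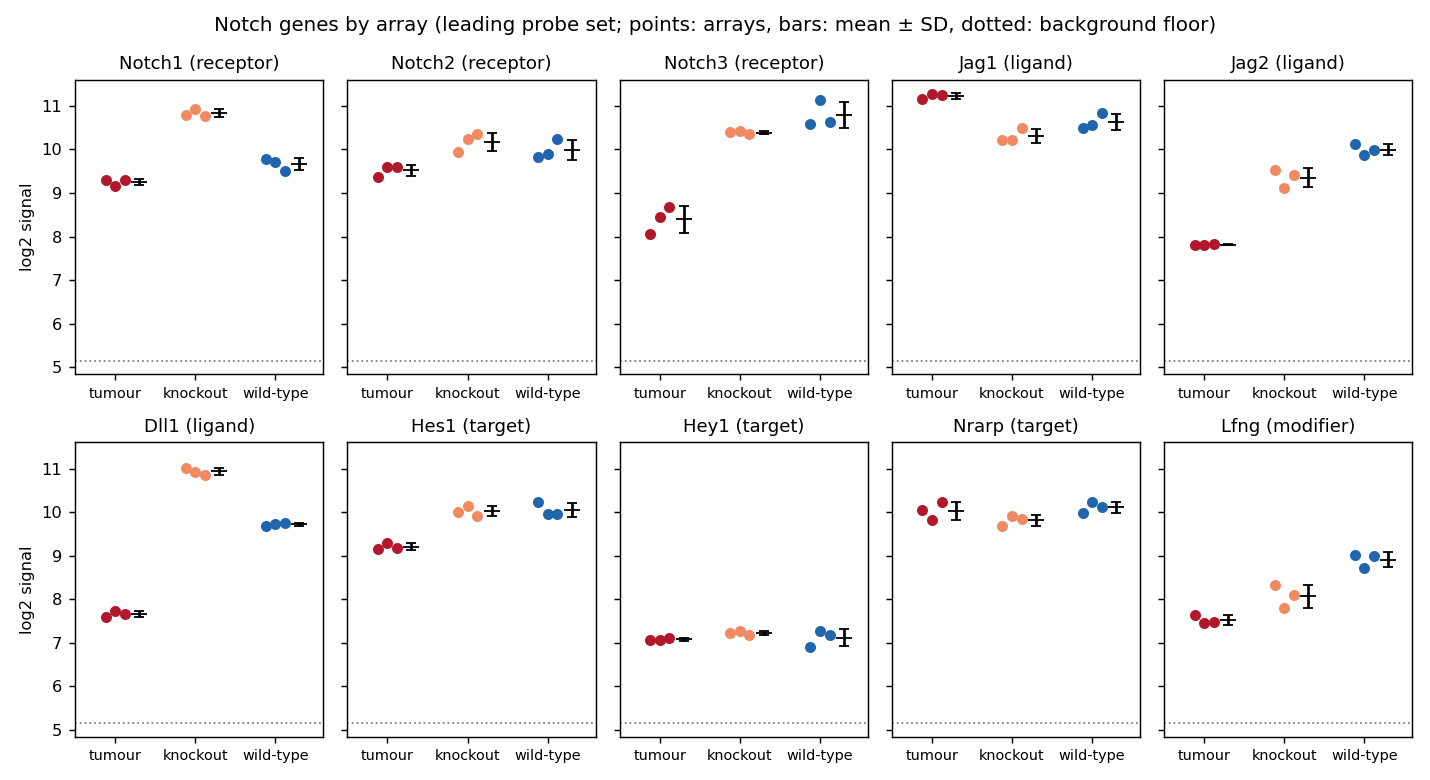
Log2 signal of the leading probe set of each Notch gene (vertical axis) on the 3 tumour, 3 knockout and 3 wild-type arrays (points), with the mean and SD of each line (bars) and the background floor of 5.15 log2 (dotted). Dll1 is spread widest, with tumour arrays at 7.60 to 7.73, knockout arrays at 10.86 to 11.01 and wild-type arrays at 9.69 to 9.76, while Hey1 arrays lie between 6.90 and 7.28.

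For tumour versus knockout, 0 of 10 genes were called higher and 4 lower. Over all 18193 genes 14.2% were called, 7.79% higher and 6.38% lower. The median log2 difference of the 10 was -0.74, against 2.73e-05 over all genes, and the median size was 0.87 against 0.225. For tumour versus wild-type, again 0 were higher and 4 lower, where 16.6% of all genes were called, 8.09% higher and 8.46% lower. Here the median was -0.65 against 0.0101 over all genes, and the median size 0.72 against 0.247. For knockout versus wild-type, 2 were higher and 0 lower, where 4.88% of all genes were called, 1.90% higher and 2.98% lower. The median difference was -0.16 against -0.00423, and the median size 0.37 against 0.15. Arrays of the 2 lines did not overlap for 9 of 10 genes between tumour and knockout, where 52.3% of all genes did not overlap. The counts were 8 of 10 against 54.7% for tumour and wild-type, and 7 of 10 against 39.1% for knockout and wild-type. At any fold, 8 of 10 genes had an adjusted p under 0.05 for tumour versus knockout, 8 for tumour versus wild-type and 4 for knockout versus wild-type, where the shares of all genes were 42.2%, 45.1% and 22.6%. Both tumour comparisons use the same tumour arrays and each tracheal line enters 2 of the 3 comparisons, so the counts are not independent of each other. The 10 genes were chosen with earlier results of these data known. All 10 read above the background floor on all 9 arrays, while the 18193 genes include some under it, so the 2 sets are not alike in signal. For tumour versus knockout 5119 of 45037 probe sets were called, and 4561 of 27022 without the dimmest 40%.

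Notch1, a receptor of many epithelia, skin keratinocytes among them, was highest in the knockout line. Its leading probe set (1418634_at) read 9.29, 9.17 and 9.30 on the tumour, 10.80, 10.93 and 10.77 on the knockout and 9.78, 9.70 and 9.51 on the wild-type arrays. All knockout arrays lay above all others, and all tumour arrays below all wild-type arrays. It rose by 1.17 ± 0.10 log2 (SE, n = 3 arrays each) in knockout relative to wild-type arrays (limma adjusted p = 4.52e-06). It fell by 1.58 ± 0.10 in tumour relative to knockout arrays (limma adjusted p = 9.45e-08). Between tumour and wild-type the difference was -0.41 ± 0.10 (limma adjusted p = 0.00503), under 2-fold and not called. The second probe set (1418633_at) gave 1.02, -1.73 and -0.71 for knockout versus wild-type, tumour versus knockout and tumour versus wild-type, with the same calls.

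Notch3, a receptor found in airway progenitors and in the smooth muscle of vessels, was lowest in the tumour line. Its leading probe set (1421965_s_at) read 8.07, 8.44 and 8.67 on the tumour, 10.39, 10.42 and 10.35 on the knockout and 10.59, 11.13 and 10.63 on the wild-type arrays. Tumour arrays lay well below both others, and the knockout arrays just below the wild-type arrays. Notch3 fell by 1.99 ± 0.17 log2 in tumour relative to knockout arrays (limma adjusted p = 1.40e-06). Against the wild-type line it fell by 2.39 ± 0.17 (limma adjusted p = 2.35e-07). Knockout versus wild-type gave -0.40 ± 0.17 (limma adjusted p = 0.135), with a 95% interval of -0.76 to -0.04. A second Notch3 probe set (1421964_at) gave -1.96 and -2.47 in the tumour comparisons, both called, and -0.51 between the tracheal lines, not called. Of 5 smooth muscle markers, only Acta2 was called, and it was lower in each comparison. That is 20% of the list each time. The shares of all genes called were 4.88% for knockout versus wild-type, 14.2% for tumour versus knockout and 16.6% for tumour versus wild-type. The part of smooth muscle content in the Notch3 differences was not tested. Acta2 gave -1.61 for tumour versus knockout, where its 2 other probe sets gave -0.16 and 0.03. The mean signal of the 5 was 6.40 to 6.57, 6.67 to 6.85 and 6.93 to 7.04 per array in the tumour, knockout and wild-type lines. The lower mean of the tumour than of the wild-type line rests on the leading Acta2 probe set alone. That probe set gave -3.01 there, while Myh11, Des, Cnn1 and Tagln gave 0.12, 0.04, 0.15 and 0.15. The smooth muscle myosin Myh11 read 5.54, 5.50 and 5.42 in the tumour, knockout and wild-type lines.

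Notch2, a widely expressed receptor, was not called anywhere. Its leading probe set (1455556_at) read 9.36, 9.60 and 9.59 on the tumour, 9.94, 10.23 and 10.35 on the knockout and 9.83, 9.89 and 10.25 on the wild-type arrays. The tumour arrays lay below all others, and the arrays of the tracheal lines overlapped. The tumour line differed by -0.65 ± 0.14 from the knockout (limma adjusted p = 0.00268) and by -0.47 ± 0.14 from the wild-type line (limma adjusted p = 0.019). A second Notch2 probe set (1451889_at) did not share that direction, at 0.11 and 0.25 (limma adjusted p = 0.461 and 0.0755). The lower Notch2 signal of the tumour line therefore rests on 1 of its 2 probe sets.

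Dll1, a Delta-like ligand that pulmonary neuroendocrine cells are known to carry, had the widest range of the 10 genes, 3.27 log2 between line means. Its only probe set (1419204_at) read 7.60, 7.73 and 7.66 on the tumour, 11.01, 10.93 and 10.86 on the knockout and 9.69, 9.73 and 9.76 on the wild-type arrays. The 3 lines were fully separated, with the knockout line highest and the tumour line lowest. Dll1 was 9.66-fold lower on tumour than on knockout arrays (-3.27 ± 0.08 log2, limma adjusted p = 5.63e-11). It was 4.19-fold lower on tumour than on wild-type arrays (-2.07 ± 0.08, limma adjusted p = 2.17e-09). In knockout relative to wild-type arrays it was 2.3-fold higher (1.20 ± 0.08, limma adjusted p = 1.07e-06).

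Jag2, a Jagged ligand of basal cells, fell in the tumour line on both of its probe sets. The leading one (1426430_at) read 7.81, 7.80 and 7.82 on the tumour, 9.53, 9.12 and 9.41 on the knockout and 10.12, 9.88 and 9.99 on the wild-type arrays. The lines did not overlap, in the order tumour, knockout, wild-type from low to high. The differences were -1.54 ± 0.11 log2 for tumour versus knockout (limma adjusted p = 4.25e-07) and -2.19 ± 0.11 for tumour versus wild-type (limma adjusted p = 1.65e-08). Knockout versus wild-type gave -0.65 ± 0.11 (limma adjusted p = 0.00151), which is 1.57-fold and not called. The second probe set (1426431_at) gave -1.86, -2.60 and -0.74 in these comparisons, with the same calls.

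Jag1, the other Jagged ligand, read highest in the tumour line on each of its 3 probe sets. The leading one (1434070_at) read 11.16, 11.28 and 11.25 on the tumour, 10.21, 10.21 and 10.49 on the knockout and 10.50, 10.56 and 10.84 on the wild-type arrays. Tumour arrays lay above all others, and knockout arrays below all wild-type arrays by a narrow gap. Its difference of 0.93 ± 0.11 between tumour and knockout (limma adjusted p = 3.66e-05) was just under 2-fold, and it reached 1.02 and was called without knockout replicate 3. Tumour versus wild-type gave 0.60 ± 0.11 (limma adjusted p = 0.00108). The second probe set (1421106_at) was called higher on tumour than on knockout arrays, by 1.39 ± 0.15 (limma adjusted p = 1.03e-05). The third (1421105_at) gave 0.67 ± 0.16 (limma adjusted p = 0.00525). Jag1 and Jag2 thus had opposite signs in both tumour comparisons on all 5 of their probe sets. Between knockout and wild-type the leading Jag1 probe set differed by -0.33 ± 0.11 (limma adjusted p = 0.0707).

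**Figure D2:**
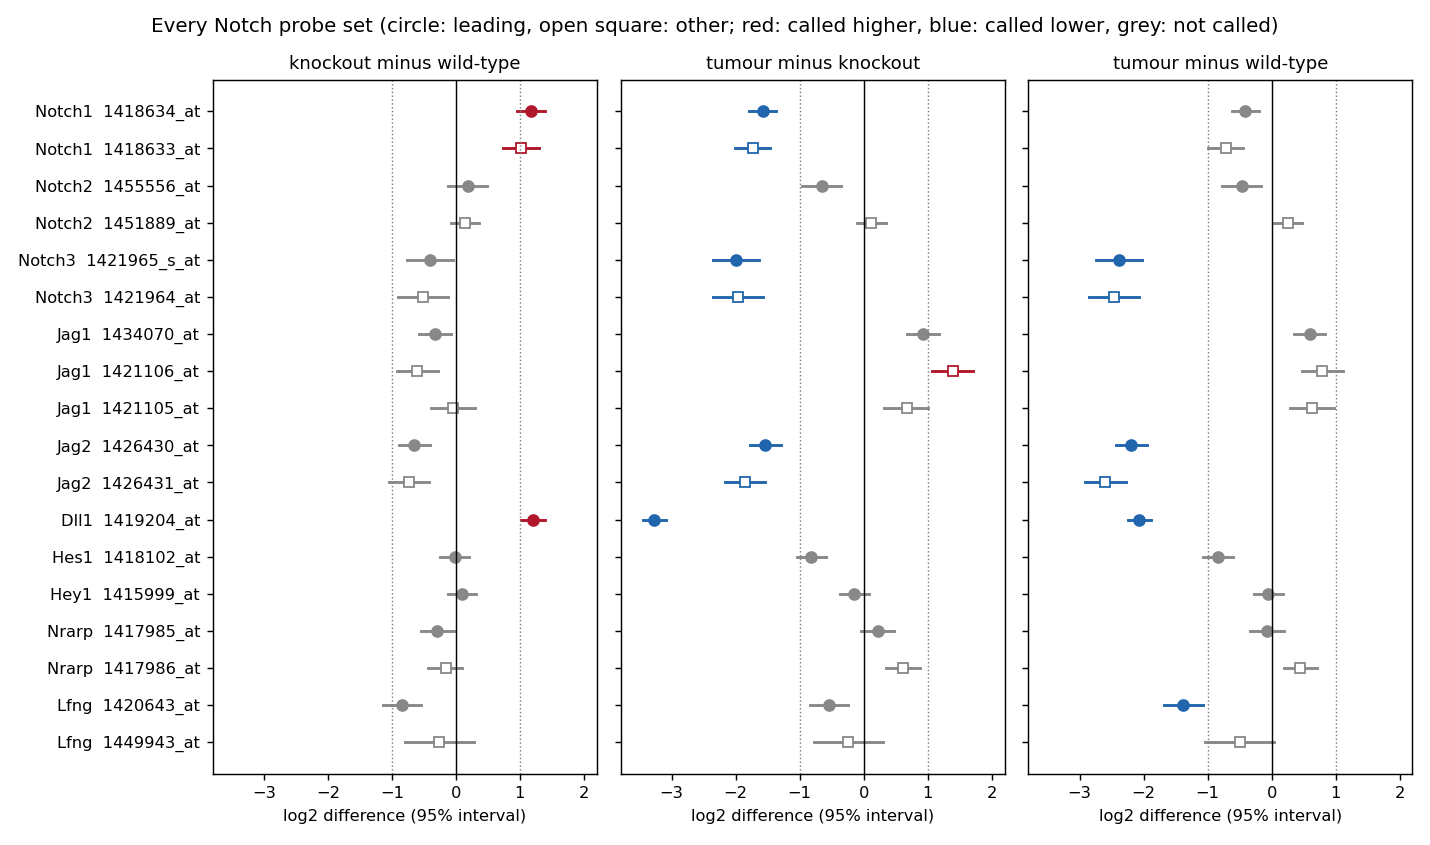
Log2 difference (horizontal axis) with its 95% interval (lines) for each of the 18 Notch probe sets in the 3 comparisons; circles are leading probe sets, open squares the others, dotted lines mark 2-fold. Both Notch3 and both Jag2 probe sets lie past 2-fold lower in the tumour comparisons. In these comparisons all 3 Jag1 probe sets lie to the right of 0, and the 2 Notch2 probe sets lie on opposite sides of 0.

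No target was called. Hes1, a repressor of the basic helix-loop-helix class and a direct target in many tissues, was measured by 1 probe set (1418102_at). It read 9.15, 9.30 and 9.17 on the tumour, 10, 10.15 and 9.92 on the knockout and 10.24, 9.96 and 9.95 on the wild-type arrays. Tumour arrays lay below all others and the tracheal lines overlapped. The tumour line differed by -0.82 ± 0.10 from the knockout (limma adjusted p = 5.33e-05) and by -0.84 ± 0.10 from the wild-type line (limma adjusted p = 3.72e-05). Both are under 2-fold, at 1.76-fold and 1.79-fold, and not called. Knockout versus wild-type gave -0.02, with a 95% interval of -0.25 to 0.21.

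Hey1, a repressor related to Hes1, read 7.06, 7.06 and 7.12 on the tumour, 7.22, 7.28 and 7.17 on the knockout and 6.90, 7.27 and 7.19 on the wild-type arrays (1415999_at). The wild-type arrays overlapped both other lines, and the tumour arrays lay just below the knockout arrays. The 95% intervals of its log2 differences were -0.12 to 0.32 for knockout versus wild-type, -0.37 to 0.08 for tumour versus knockout and -0.27 to 0.18 for tumour versus wild-type.

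Nrarp, a feedback inhibitor that binds the Notch intracellular domain, had 2 probe sets. The leading one (1417985_at) read 10.05, 9.82 and 10.23 on the tumour, 9.68, 9.92 and 9.84 on the knockout and 9.97, 10.24 and 10.11 on the wild-type arrays. Its tumour arrays overlapped both other lines, and its differences were 0.22 ± 0.12 for tumour versus knockout (limma adjusted p = 0.199) and -0.08 ± 0.12 for tumour versus wild-type (limma adjusted p = 0.685). The second (1417986_at) read 10.35, 10.14 and 10.51 on the tumour, 9.76, 9.76 and 9.63 on the knockout and 10.07, 9.87 and 9.70 on the wild-type arrays. On that probe set the tumour arrays lay above all others, with differences of 0.61 ± 0.12 (limma adjusted p = 0.00139) and 0.45 ± 0.12 (limma adjusted p = 0.00974). The sign of Nrarp between tumour and wild-type therefore depended on the probe set, and neither was called.

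Lfng, which extends fucose on Notch receptors and so alters their answer to Delta-like and Jagged ligands, was lowest in the tumour line. Its leading probe set (1420643_at) read 7.65, 7.45 and 7.48 on the tumour, 8.32, 7.79 and 8.10 on the knockout and 9.01, 8.71 and 9.0 on the wild-type arrays. The 3 lines did not overlap. Lfng was 2.6-fold lower on tumour than on wild-type arrays (-1.38 ± 0.14, limma adjusted p = 5.22e-06). Tumour versus knockout gave -0.54 ± 0.14 (limma adjusted p = 0.00767) and knockout versus wild-type -0.84 ± 0.14 (limma adjusted p = 9.79e-04), neither called. A second probe set (1449943_at) gave -0.50 ± 0.25 for tumour versus wild-type (limma adjusted p = 0.142). With the mean of both probe sets the tumour difference was -0.94 and no longer called.

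Promoter windows of RefSeq, on build GRCm38.p6 and running from 250 bases before to 50 after a gene's start, were matched for 8 of the 10 genes, in 9 windows. The targets Hes1 and Hey1 had no window in the sources used here and were not searched. The 9 windows were searched on both strands for the core letters that Rbpj binds, TGGGAA, and for the E-box CACGTG, which reads the same on both strands. The Rbpj core was found in 1 of the 9 windows, that of Lfng, which held it 2 times. Of all 32851 windows in the table, 25.6% held it at least once and 3.79% at least 2 times. In Lfng the cores begin 135 bases before the start, on the opposite strand as TTCCCA, and 108 bases before it. The E-box of Lfng begins 112 bases before the start and shares 2 bases with the nearer core. Nrarp held the E-box but no Rbpj core in this window; 7.15% of all windows hold an E-box. The Lfng window is shown because it alone of the 9 holds the core, and the Nrarp window as that of a feedback target of the pathway. Matches are in capitals, with the Lfng window at chr5:140607091-140607390 and the Nrarp window at chr2:25180508-25180807, both on the plus strand. A match is a description of the letters and not a measured binding site.
Lfng: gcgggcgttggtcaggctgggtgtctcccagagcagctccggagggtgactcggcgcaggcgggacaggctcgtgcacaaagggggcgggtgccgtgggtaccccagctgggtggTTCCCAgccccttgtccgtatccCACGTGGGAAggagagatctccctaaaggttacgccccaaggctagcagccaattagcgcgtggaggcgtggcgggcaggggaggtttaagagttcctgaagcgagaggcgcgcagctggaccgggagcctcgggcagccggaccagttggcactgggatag
Nrarp: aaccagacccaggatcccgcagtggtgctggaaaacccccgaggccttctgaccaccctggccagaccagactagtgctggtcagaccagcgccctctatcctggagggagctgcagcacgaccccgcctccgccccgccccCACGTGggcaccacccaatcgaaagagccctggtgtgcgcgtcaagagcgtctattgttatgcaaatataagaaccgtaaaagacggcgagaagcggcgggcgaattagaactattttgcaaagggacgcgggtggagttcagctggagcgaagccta

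Across arrays, each line had a Notch pattern of its own that its 3 arrays shared. Tumour arrays were lowest in Notch1, Notch3, Jag2, Dll1, Hes1 and the leading Lfng probe set and highest in Jag1. Knockout arrays were highest in Notch1 and Dll1. Wild-type arrays were highest in Jag2 and in the leading Notch3 and Lfng probe sets. Of the 7 genes with several probe sets, all 7 had probe sets of 1 sign for knockout versus wild-type, 6 for tumour versus knockout and 5 for tumour versus wild-type; the exceptions were Notch2, and Nrarp in the last comparison.

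**Figure D3:**
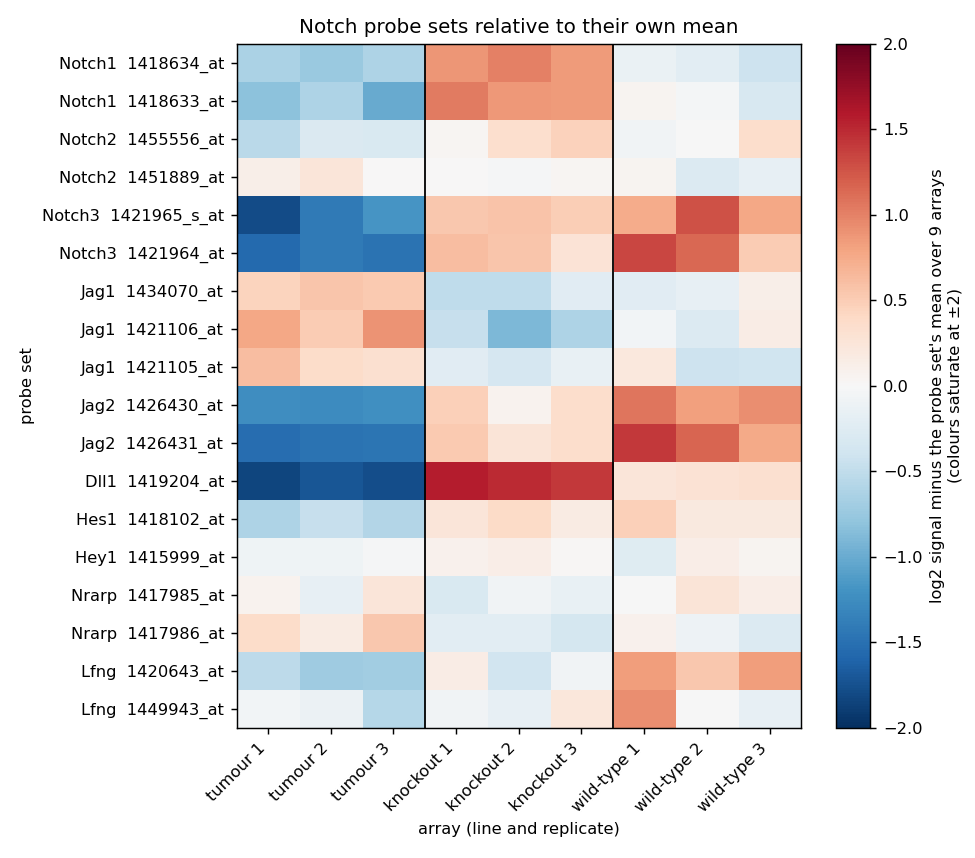
Log2 signal of each Notch probe set (rows) on each array (columns) minus that probe set's mean over the 9 arrays; red is above and blue below the mean, and colours saturate at 2 log2. The tumour columns are blue for Notch3, Jag2 and Dll1 and red for Jag1, and the knockout columns are red for Notch1 and Dll1.

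Of 71 further genes of the pathway, 65 were measured by a probe set of their own. Their lists were chosen with earlier results of these data known, so the shares below describe the lists and test nothing. In knockout relative to wild-type arrays 5 rose and 2 fell, or 10.8%, beside 4.88% of all genes. In the tumour relative to the knockout line 5 rose and 7 fell, or 18.5%, beside 14.2%. In the tumour relative to the wild-type line 5 rose and 14 fell, or 29.2%, beside 16.6%. Among the other receptors and ligands the endothelial genes Notch4 and Dll4 were not called, and Notch4 read 5.03, 5.07 and 5.11 in the tumour, knockout and wild-type lines, all line means under the floor. Of 6 endothelial markers none was called, and Tie1, Tek and Emcn lay under the floor on all 9 arrays. Kdr read 7.66, 7.60 and 7.46, Cdh5 5.28, 5.40 and 5.42 and Pecam1 5.03, 5.10 and 5.23 in the tumour, knockout and wild-type lines. Dlk2, a non-canonical ligand of the Delta-like family, read 7.22, 7.29 and 7.17 on the tumour, 9.22, 9.16 and 8.92 on the knockout and 9.46, 9.26 and 9.41 on the wild-type arrays. Its tumour arrays lay far below the rest, by -1.87 ± 0.10 against the knockout line (limma adjusted p = 3.20e-08). Its relative Dlk1 was at least 1.91-fold lower for tumour versus wild-type, with the tumour arrays under the floor, but a second Dlk1 probe set gave 0.24.

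Of 8 genes of receptor cleavage, 1 was called for tumour versus knockout (12.5%, beside 14.2% of all genes) and 2 for tumour versus wild-type (25%, beside 16.6%). Aph1b, a subunit of the gamma-secretase that frees the intracellular domain, read 6.73, 7.19 and 6.92 on the tumour, 8.17, 8.13 and 7.95 on the knockout and 8.90, 9.22 and 8.60 on the wild-type arrays. The 3 lines did not overlap, and it fell by 1.14 ± 0.16 against the knockout line (limma adjusted p = 1.01e-04) and by 1.96 ± 0.16 against the wild-type line (limma adjusted p = 8.51e-07). Adam10, a protease that cuts the receptor once it has bound a ligand, was called only for tumour versus wild-type, at -1.11 on its leading probe set and -0.66 to -0.02 on its 3 others, none of them called. The other 6 of the 8 measured cleavage genes were not called in any comparison. Of 4 genes of receptor glycosylation only the Lfng relative Rfng was called, at -1.10 and -1.33 in the tumour against the knockout and wild-type lines; its second probe set gave -0.20 and -0.12.

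Among 16 genes of endocytosis and turnover, Dtx4, a ubiquitin ligase of the Deltex family, set the wild-type line apart. It read 9.99, 10.03 and 10.25 on the tumour, 10.88, 10.54 and 10.57 on the knockout and 8.41, 8.08 and 8.18 on the wild-type arrays. It rose by 2.44 ± 0.12 in the knockout (limma adjusted p = 7.74e-08) and by 1.87 ± 0.12 in the tumour line (limma adjusted p = 1.58e-07) against wild-type. Its relative Dtx2 fell by 1.21 against the knockout and by 1.76 against the wild-type line in the tumour. The ligand-uptake adaptor Epn2 rose by 1.18 in tumour relative to knockout arrays, where its 5 other probe sets ranged from -0.10 to 1.99. Neurl1a and Dtx3l were called lower for tumour versus wild-type only, at -1.13 and -1.02; the 5 other Neurl1a probe sets ranged from -0.49 to 0.16 and the other Dtx3l probe set gave -0.78, none called.

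In the nuclear complex, Rbpj itself read 9.93, 10.05 and 10.24 on the tumour, 8.92, 9.05 and 8.87 on the knockout and 9.27, 9.43 and 9.41 on the wild-type arrays. Tumour arrays were above all others. It rose by 1.12 ± 0.10 in tumour relative to knockout arrays (limma adjusted p = 2.98e-06), its 2 other probe sets gave 1.08 and 2.00, both called, and tumour versus wild-type gave 0.70, not called, with its 2 other probe sets at 0.84 and 1.48, of which 1 was called higher. The corepressor Tle4 read 9.68, 9.54 and 9.88 on the tumour, 5.96, 5.90 and 6.02 on the knockout and 7.15, 7.39 and 7.44 on the wild-type arrays. It was 13.3-fold higher on tumour than on knockout arrays (3.74 ± 0.11, limma adjusted p = 1.93e-10), a fold that rests in part on background because the highest bacterial control read 5.96. Its 2 other probe sets gave 0.53 and 3.12 there. Tle4 also rose by 2.37 in tumour relative to wild-type arrays, where its 2 other probe sets gave 0.44 and 2.90, 1 of them called. It fell by 1.37 in knockout relative to wild-type arrays, where its 2 other probe sets gave -0.21 and -0.10. The related Tle3 fell by 1.32 in the tumour against the knockout and by 2.22 against the wild-type line, where 0 and 2 of its 3 other probe sets were also called lower. Kat2b, a histone acetyltransferase, was lower by 1.12 and 1.07 in these comparisons, with none of its 2 other probe sets called. Maml1, which bridges the Notch complex to coactivators, and Tle2 were called lower for tumour versus wild-type only, at -1.14 and -1.04; the 2 other Maml1 probe sets gave -0.55 and -0.10, neither called.

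Of 15 further Hes, Hey and target genes, several of which also answer to other pathways, 4 rose and 1 fell in knockout relative to wild-type arrays, or 33.3%, beside 4.88% of all genes. Those that rose were the cyclin Ccnd1 (2.22 ± 0.12), the cell-cycle inhibitor Cdkn1a (1.49 ± 0.10), Hes6 (1.22 ± 0.09) and the repressor Bhlhe40 (1.13 ± 0.09). For tumour versus knockout 2 rose and 1 fell, or 20%, beside 14.2% of all genes. For tumour versus wild-type 3 rose and 2 fell, or 33.3%, beside 16.6%. Because the list was chosen with earlier results of these data known, its shares are not a test of Notch target activity. Hes6, which opposes Hes1 in neural cells, read 8.13, 8.32 and 8.18 on the tumour, 9.07, 9.22 and 9.23 on the knockout and 7.96, 8.0 and 7.92 on the wild-type arrays. The knockout arrays stood above both other lines, as they did for Dll1 and Notch1. Id3, an inhibitor of helix-loop-helix factors, read 6.14, 5.85 and 5.56 on the tumour, 6.85, 6.67 and 6.96 on the knockout and 10.64, 10.37 and 10.45 on the wild-type arrays. It was 12.6-fold lower in the knockout (limma adjusted p = 9.82e-09) and 24.9-fold lower in the tumour (limma adjusted p = 2.03e-10) than in the wild-type line, and the tumour fold rests in part on background-level signal. In the tumour line Ccnd1 and Bhlhe40 rose against both other lines, by 1.28 and 1.43 against the knockout line, and Sox9 was called lower against both, at -1.94 and -1.29. Its 2 other probe sets gave -2.07 and -0.42 relative to the knockout line, 1 of them called, and -0.78 and -0.42 relative to the wild-type line, neither called. Myc was called for tumour versus wild-type only, at 1.37. Hes2, Hes3, Hes5, Hes7, Hey2 and Heyl were not called in any comparison, and Hey2 lay under the floor on all 9 arrays, with line means of 3.93, 3.88 and 3.82.

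**Figure D4:**
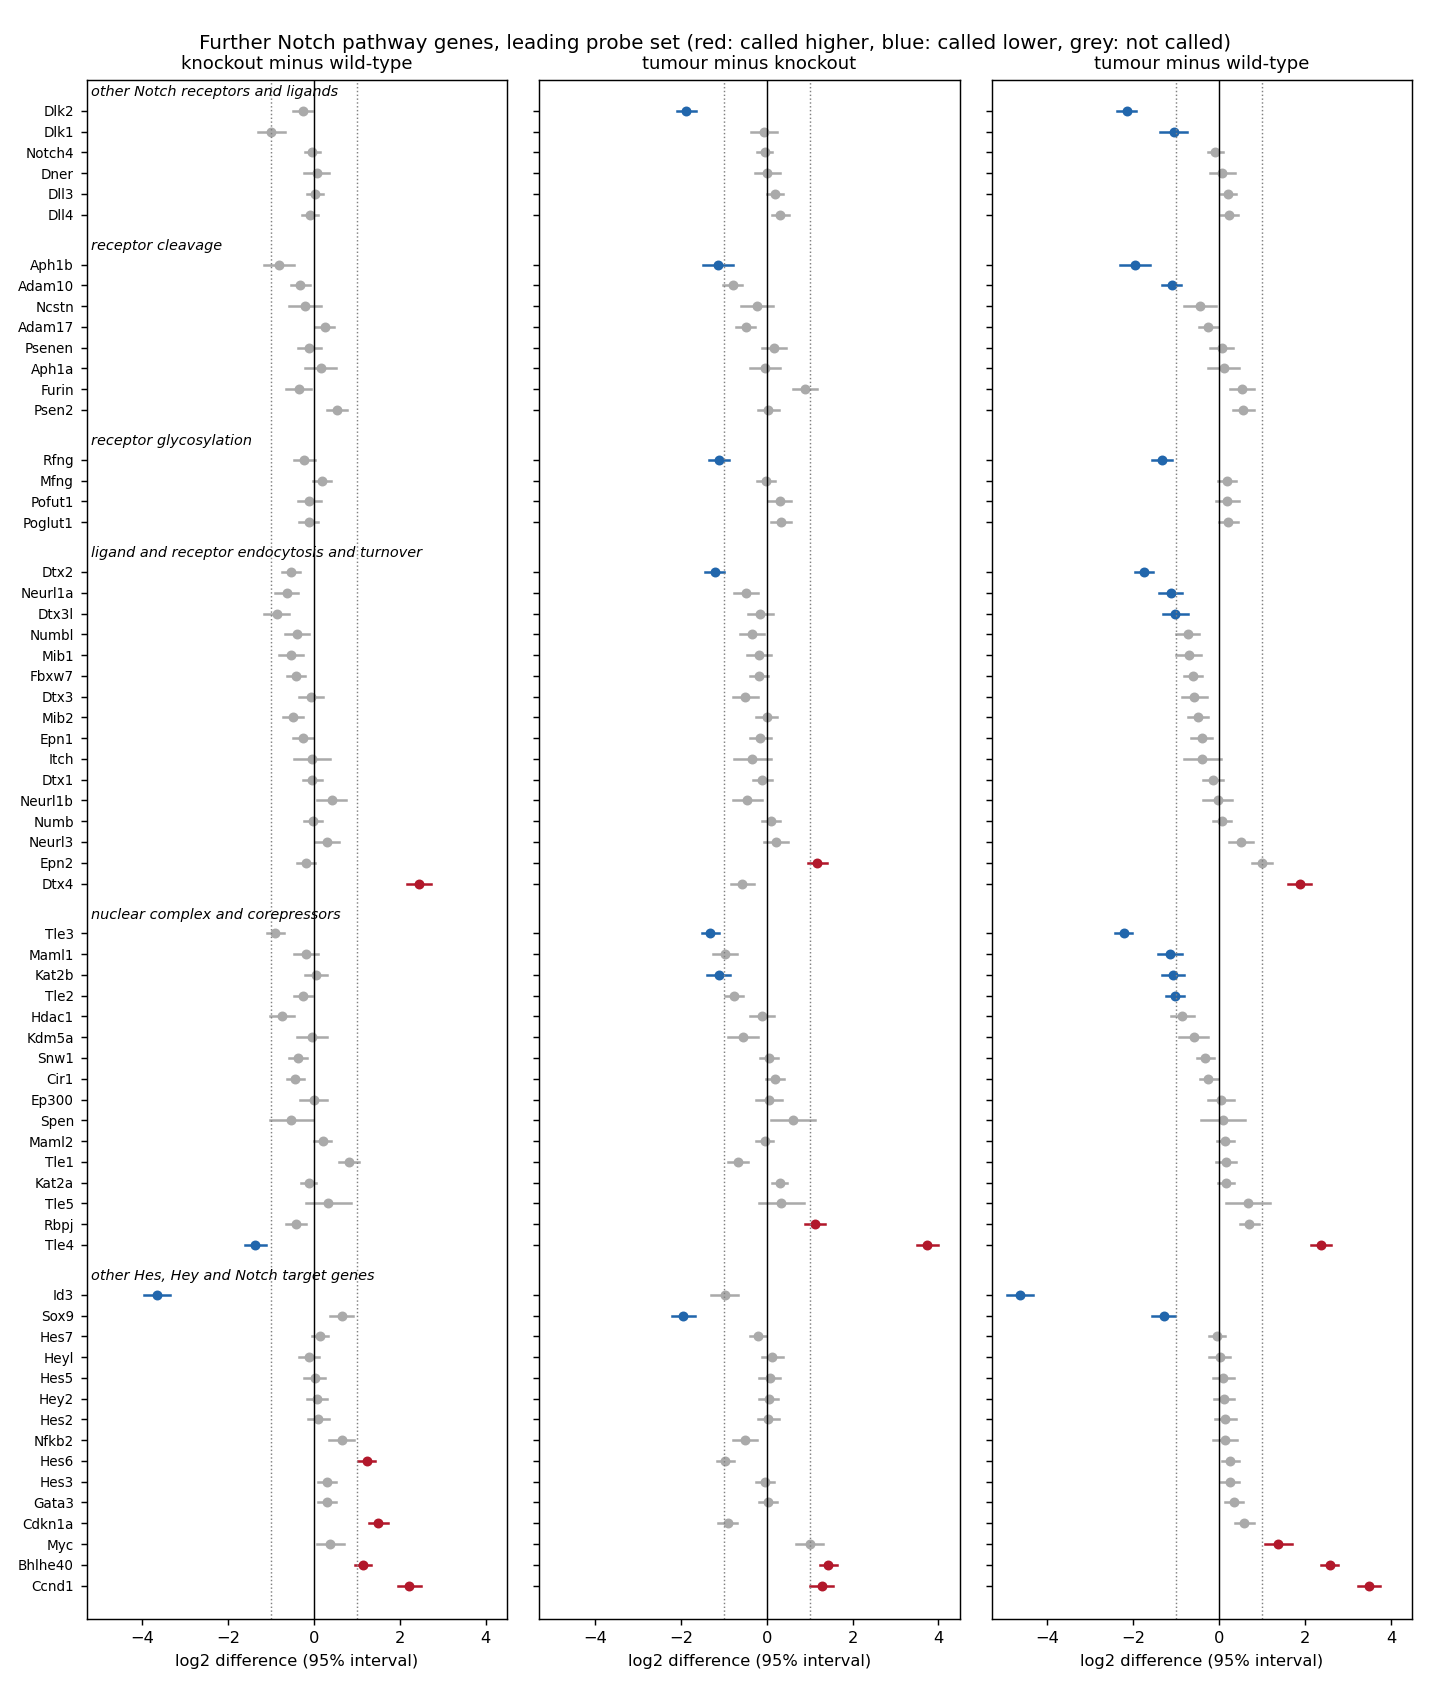
Log2 difference (horizontal axis) with its 95% interval for the leading probe set of each of the 65 further pathway genes, grouped by role, in the 3 comparisons; red marks genes called higher, blue genes called lower, and dotted lines 2-fold. Tle4 lies furthest right for tumour versus knockout at 3.74, Id3 furthest left for tumour versus wild-type at -4.64, and Dtx4 is red wherever the wild-type line is the baseline.

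For the 3 members with the widest range, the genes of most similar pattern were taken as those with the smallest root mean square difference in mean-centred log2 signal over the 9 arrays. Plekhg1 was closest to Dll1, at 0.07 log2, with line means of 6.53, 9.87 and 8.68 in the tumour, knockout and wild-type lines. Casp1 and Adamtsl4 followed, both at 0.13. Notch3 was closest to Usp54, Slc24a3 and Ptprf, at 0.13, 0.17 and 0.18. Jag2 was closest to Rfx5, Gm41724 and Sema3c, at 0.14, 0.14 and 0.15. With 3 lines, many genes share a pattern by having the same order of lines. Within 0.25 log2 there were 11 genes for Dll1, 39 for Notch3 and 74 for Jag2.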

How the data were processed

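RNA from 3 cell lines, tumour, knockout and wild-type, was measured on 3 Affymetrix MG-430 2.0 arrays each, 9 in all. Per the labels' protocols, total RNA was purified on columns with DNase and transcribed in vitro into biotin-labelled cRNA. The authors deposited 1 value per probe set and array, read here as log2 signal from the range; how they corrected background, summarized probes and normalized is not given in the sources used here. Array medians lay between 6.28 and 6.34. Arrays carry no read depth, so their number limits the precision.

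Of 45101 probe sets, 64 controls were left out. By the platform annotation 34945 of the rest had 1 gene symbol, 932 several and 9160 none. All 9 arrays entered a single linear model for each probe set (limma 3.58.1, lmFit and eBayes, in R 4.3.3), with 6 residual degrees of freedom, and two-sided p-values were adjusted by Benjamini-Hochberg over 45037 probe sets. A call needed an adjusted p under 0.05 and a 2-fold difference. The procedure was run on simulated arrays with independent noise and shifts planted in the tumour arrays only. That run does not cover effects shared between arrays or the use of 1 line per condition. Named genes are the 10 members, called genes of the pathway lists, the genes of most similar pattern and marker genes. The members, lists and background floor were chosen with earlier results of these data known. Replicate numbers were not used to pair the arrays in the main model, since not all correlations of same-numbered deviations passed 0.1 (from -0.145 to 0.278). This rule does not test for a batch shared by replicate number. The 3' minus 5' beta-actin difference rose with replicate number in the tumour (0.37, 0.60, 0.74) and wild-type lines (0.75, 1.09, 1.78). In the knockout line it read 0.92, 0.90 and 0.95. The alternatives were other normalizations, filters, probe set rules, thresholds and variance models, the replicate number as a block, and leaving out each array in turn.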

Additional observations from a re-analysis of the deposited data

How the results depend on the processing

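The 10 genes gave 600 log2 differences over 20 alternatives. Of these 574 kept their direction and side of the threshold, 1 was no longer called, 18 were newly called and 7 changed sign, all of them uncalled. Hes1 for knockout versus wild-type (-0.02) became 0.04 under quantile normalization, 0.03 without knockout replicate 3 and 0.07 without wild-type replicate 1. Nrarp for tumour versus wild-type (-0.08) became 0.19 when probe sets were averaged per gene and 0.03 without tumour replicate 2. Hey1 became -0.01 for knockout versus wild-type without wild-type replicate 1 (0.10 with all arrays) and 0.03 for tumour versus wild-type without wild-type replicate 2 (-0.05). Leaving out each array in turn, these differences ranged from -0.08 to 0.07 for Hes1, -0.17 to 0.03 for Nrarp, and -0.01 to 0.17 (knockout versus wild-type) and -0.15 to 0.03 (tumour versus wild-type) for Hey1. The 1 lost was Lfng for tumour versus wild-type when probe sets were averaged per gene (-0.94), which left 3 Notch genes called there. Of the 18, 17 came from a lower fold threshold and the other was Jag1 for tumour versus knockout without knockout replicate 3 (1.02). With no fold threshold the Notch genes called were 4 for knockout versus wild-type, 8 for tumour versus knockout and 8 for tumour versus wild-type, and probe sets called were 7684, 15963 and 17021. With a 1.5-fold threshold the Notch genes were 4, 7 and 6 and the probe sets 4129, 9950 and 10892. Fitting leading probe sets only gave 888, 2578 and 3012 calls, and averaging all probe sets of a gene 743, 2112 and 2530, against 1672, 5119 and 5908 over all probe sets; both tested fewer features, and averaging also changed the values. Leaving out each array in turn gave 2 to 2, 4 to 5 and 4 to 4 Notch genes and 1665 to 1757, 5049 to 5324 and 5790 to 6093 probe sets. With the replicate block the Notch genes called stayed at 2, 4 and 4 and the probe sets came to 1673, 5117 and 5914, and no call of the 10 genes changed. Every leading probe set of the 10 genes read above the floor of 5.15 on all 9 arrays. With 3 arrays a line, a difference near 2-fold such as that of Jag1 can fall on either side of the threshold.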
